A study of Mus musculus with 4 samples.

Results

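Nasal mesenchymal cells that carried transcripts of a panel of 7 genes, Itgbl1, Crym, Ecrg4, Cldn11, Foxc1, Akap12 and Prdm6, were examined in noses of mouse embryos at embryonic day 14.5. Cells were selected on measured UMIs, random tags that each mark 1 captured molecule, so levels of the selected cells set beside those of other cells are a description with no test. A member cell had at least 500 detected genes, at most 10% mitochondrial UMIs, at least 3 UMIs of the collagen genes Col1a1, Col1a2 and Col3a1 together, and at least 3 of the 7 panel genes detected. It also had no UMI of 8 excluding genes: Pou3f4, Shox2 and Osr1 (transcription factors of other mesenchyme), Slc6a13 and Trpm3 (expressed in leptomeninges), Sp7 (osteoblasts), Epcam (epithelium) and Cdh5 (endothelium). In all, 390 of 13739 retained cells met the rule, of which control 1 gave 118, control 2 gave 96, mutant 1 gave 62 and mutant 2 gave 114.

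Whole noses were dissociated with papain, frozen, and profiled with 10x droplet RNA sequencing that reads the 3′ ends of transcripts. Of the 4 libraries, 2 were titled control and 2 titled mutant, and the protocol gives 2 noses of each genotype. The series design gives the mutants as Sox10cre;yap flox/WT;taz flox/flox, and their sample labels give the Cre transgene as Tg(Sox10-cre)1Wdr, with Yapflox and Tazflox alleles, on C57Bl/6J. The controls are yap flox/flox;taz flox/flox without Cre in the series design, whereas their sample labels name C57Bl/6J animals, so the groups are named here by their titles. Yap (gene Yap1) and Taz (gene Wwtr1) are transcriptional coactivators that bind TEAD factors and are held out of the nucleus by Hippo signalling. Sox10 is expressed in migrating neural crest and later in its glia, and the neural crest also gives rise to most facial mesenchyme. The cells carry no lineage tag, so whether the floxed alleles were recombined in any member cell was not measured, and a 3′ read can come from a transcript that lacks floxed exons. The protocol names separate sequencing providers without saying which library went where, and nothing states that libraries came from separate litters. All p-values therefore measure the spread between these libraries alone.

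Libraries held between 2827 and 4846 barcodes, and retained cells had medians of between 5282 and 8549 UMIs. Between 4 and 8 cell barcodes were shared by any pair of libraries, at most 0.283% of the smaller. Summed over member cells, control 1 gave 1014146 UMIs and control 2 gave 833465, while mutant 1 gave 616927 and mutant 2 gave 795555. Member cells were deeper than other mesenchyme in every library, with medians of 8352, 7964, 9741 and 6577 UMIs against 6475, 6537, 8147 and 4946. Other mesenchyme means the 9737 collagen-positive cells that lacked Sp7, Epcam and Cdh5 and were not members.

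The panel joins genes known from different settings. Foxc1 is a forkhead transcription factor required in cranial mesenchyme and meninges, and Cldn11 encodes a claudin of tight junctions that marks the arachnoid barrier. Crym encodes a cytosolic binding protein for thyroid hormone, Ecrg4 a secreted peptide precursor, and Itgbl1 a secreted protein with integrin-like EGF repeats. Akap12 encodes a scaffold for protein kinases, and Prdm6 a chromatin regulator studied in smooth muscle.

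Promoters are shown for 3 panel genes, to set those detected together beside Ecrg4, and for Cytl1, the gene that passed the genotype test below. Each is a RefSeq entry of GRCm38.p6 with 300 bases on the strand of the gene. Capitals mark the TEAD core motif GGAATG, searched on both strands, and the forkhead motif GTAAACA was searched in the same way. Of 32851 promoters of this length, 14.7% held GGAATG and 3.65% held GTAAACA.
Itgbl1, chr14:123659890-123660189, plus strand: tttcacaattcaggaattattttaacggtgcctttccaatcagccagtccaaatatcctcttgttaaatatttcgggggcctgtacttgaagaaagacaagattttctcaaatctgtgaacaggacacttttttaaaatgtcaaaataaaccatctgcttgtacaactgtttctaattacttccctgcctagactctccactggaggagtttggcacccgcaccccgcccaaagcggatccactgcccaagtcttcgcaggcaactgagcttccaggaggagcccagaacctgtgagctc
Cldn11, chr3:31149670-31149969, plus strand: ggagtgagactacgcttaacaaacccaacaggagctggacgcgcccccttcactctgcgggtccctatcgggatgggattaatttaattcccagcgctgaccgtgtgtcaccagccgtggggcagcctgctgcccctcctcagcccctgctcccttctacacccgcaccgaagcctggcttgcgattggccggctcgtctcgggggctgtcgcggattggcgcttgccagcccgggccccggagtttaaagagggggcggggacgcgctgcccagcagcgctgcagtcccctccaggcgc
Ecrg4, chr1:43730352-43730651, plus strand: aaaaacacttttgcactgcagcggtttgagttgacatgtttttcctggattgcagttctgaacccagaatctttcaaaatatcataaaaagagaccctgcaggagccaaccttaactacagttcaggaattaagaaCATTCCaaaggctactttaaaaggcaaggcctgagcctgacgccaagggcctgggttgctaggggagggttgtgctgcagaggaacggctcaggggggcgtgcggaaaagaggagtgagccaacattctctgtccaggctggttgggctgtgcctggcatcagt
Cytl1, chr5:37735269-37735568, plus strand: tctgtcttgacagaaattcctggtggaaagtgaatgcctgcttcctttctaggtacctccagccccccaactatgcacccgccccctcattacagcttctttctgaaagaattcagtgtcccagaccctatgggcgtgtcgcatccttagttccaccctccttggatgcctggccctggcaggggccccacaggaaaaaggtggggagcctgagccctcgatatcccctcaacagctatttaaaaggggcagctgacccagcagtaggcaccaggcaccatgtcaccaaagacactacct
Entries were matched for 4 of the 7 panel genes (Itgbl1, Cldn11, Ecrg4 and Foxc1). Of these, 1 held the TEAD core, that of Ecrg4, on the minus strand with its first printed base at position -114 from the transcript start. None of the 4 held the forkhead motif. The Cytl1 promoter held neither. A match is a run of letters, not a measured site.

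The member cells were first checked against the working name of the selection, which is built on Itgbl1, Crym and Cldn11. All 3 of those genes were detected in 27 of the 390 cells, or 6.92%, and 97 cells, or 24.9%, had none of them. The genes detected most often were Akap12 (75.6% of members) and Foxc1 (75.4%), followed by Ecrg4 (53.3%), Crym (47.7%), Prdm6 (39.2%), Cldn11 (38.2%) and Itgbl1 (35.6%). In other mesenchyme the same genes were detected in 26.9%, 8.13%, 11%, 4.71%, 8.46%, 4.31% and 4.12% of cells. The name therefore describes a minority of the cells, and they are called member cells here.

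All member-cell libraries expressed the panel. Crym stood at 158, 136, 139 and 184 CPM (UMIs of a gene for every 1000000 UMIs summed over the cells) in control 1, control 2, mutant 1 and mutant 2. Itgbl1 stood at 168, 149, 148 and 177 CPM in the same order. Cldn11 was at 61.1, 109, 60.0 and 112 CPM, so that each genotype had a low and a high library. Foxc1 was at 171, 214, 164 and 167 CPM. Ecrg4 varied most among controls, at 462 and 182 CPM, with 311 and 363 CPM in the mutants. Akap12 and Prdm6 were both lowest in mutant 1, at 193 and 60.0 CPM, against 355 and 140, 560 and 104, and 446 and 117 CPM in control 1, control 2 and mutant 2.

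Of 11388 collagen-positive cells, 896 had at least 3 panel genes, and 506 of those were left out by an excluding gene. Trpm3 was present in 233 of the 896 cells, Osr1 in 182, Shox2 in 119 and Slc6a13 in 98, while Pou3f4 was present in 9. Trpm3 alone accounted for 109 cells. The rule thus kept fewer than it left out of the cells with this panel. Just inside the limit, the 218 members with exactly 3 panel genes had Fxyd5 at 29.1 CPM and Thbs2 at 191 CPM, whereas the 520 cells just outside, with exactly 2, had 12.1 and 106 CPM. Six2 was at 95.9 CPM inside and 72.6 CPM outside, and Cthrc1 at 483 and 289 CPM. The 506 cells left out by an excluding gene had Fxyd5 at 76.8 CPM and Cthrc1 at 501 CPM, both above the members with exactly 3 panel genes. Foxp2 was at 618 CPM in them, against 584 CPM in those members. Their Thbs2, at 140 CPM, lay between the values just inside and just outside, and their Six2, at 71.9 CPM, was near that just outside. Col2a1 was at 127 CPM in them, against 645 CPM just inside and 533 CPM just outside. Cells of other types were counted too, and how far free RNA accounts for panel genes in them was not measured. Of 210 cells with macrophage transcripts and few collagen UMIs, 0 had at least 3 panel genes, which allows up to 1.74% (exact 95% interval). The share was 0.721% of 1248 Epcam-positive cells (0.33% to 1.36%) and 4.00% of 175 Cdh5-positive cells (1.62% to 8.07%), at median depths of 8870, 9652 and 10460 UMIs for the macrophage, Epcam-positive and Cdh5-positive cells. Among collagen-positive cells it was 7.87% (7.38% to 8.38%), at 6609 UMIs, which lies within the interval of the Cdh5-positive cells.

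The panel genes were not all detected in the same cells. Over all collagen-positive cells, Crym was detected in 30.6% of cells with Itgbl1 and in 5.13% of cells without it. For Ecrg4 the corresponding values were 23.3% and 12.1%. Within libraries the ratio of these shares was 5.32, 5.11, 6.71 and 6.79 for Crym and 1.84, 2.16, 1.94 and 1.84 for Ecrg4. Cldn11 was detected in 32.2% of cells with Crym against 4.38% without it, and in 28.3% of cells with Foxc1 against 3.25% without it. Deeper cells detect more of every gene, and after thinning each cell to 2000 UMIs the shares were 15.7% and 2.38% for Crym, and 13.3% and 6.80% for Ecrg4. Prdm6 was detected in 3.15% of thinned cells with Itgbl1 and 4.24% of those without it. Itgbl1, Crym, Cldn11 and Foxc1 therefore formed the more tightly shared part of the panel.

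Clustering of the 390 cells without the 18 genes of the rule gave 7 sub-clusters, numbered by size. Sub-cluster 1 (118 cells) was led by Otor, Cadm2, Dcc, Negr1 and Runx2, the last a transcription factor of the osteogenic lineage. Its cells had Ecrg4 in 70.3% and Itgbl1 in 22.0%. Sub-cluster 2 (88 cells) was led by Fst, a secreted activin antagonist, and by Emcn, Adarb2, Arhgap26 and the transcription factor Tfap2b. It reversed the panel, with Crym in 77.3% and Itgbl1 in 64.8% of cells but Ecrg4 in 13.6% and Prdm6 in 10.2%. Sub-cluster 3 (74 cells) was led by Fxyd5, Tbx18, Gja1 (a gap junction protein), Rbfox1 and Anxa3, and had Akap12 in every cell.

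The remaining sub-clusters were smaller. Sub-cluster 4 (52 cells) was led by the mitotic genes Ube2c, Cenpf, Birc5, Pclaf and Top2a. Sub-cluster 5 (26 cells) was led by Nkain2, Tbx3os1, Unc5d, Cntn4 and Meis2, with Pax9, a palate and tooth transcription factor, in 84.6% of cells. Sub-cluster 6 (21 cells) was led by the tendon gene Tnmd and by Tnc, Erbb4, Thbs2 and Acta2, and had Cldn11 in none of its cells. Sub-cluster 7 (11 cells) was led by Matn1, Col11a2, Snorc, Col2a1 and Hapln1, all genes of cartilage matrix. It held 2 cells of control 1, none of control 2, 2 of mutant 1 and 7 of mutant 2. Sub-cluster 3 held 22, 30, 4 and 18 cells in that order, so the library with the lowest Akap12 and Prdm6 also had the fewest of these cells. Their part in those levels was not tested.

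**Figure D1:**
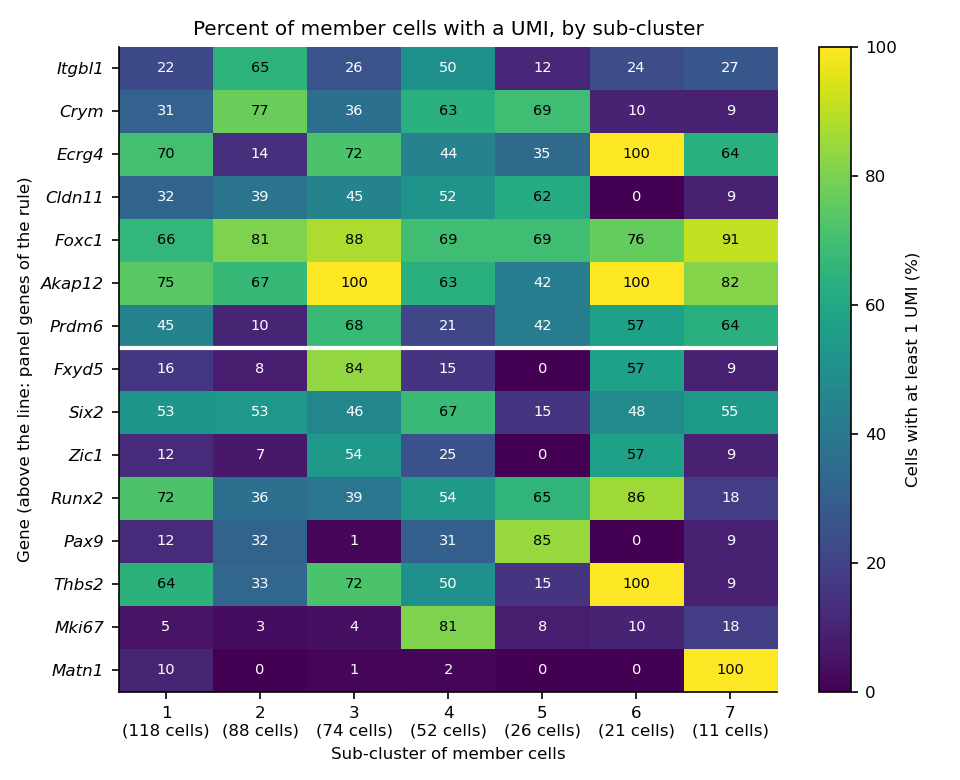
Percent of member cells with at least 1 UMI of each gene (rows) in the 7 sub-clusters (columns), with panel genes above the white line. Sub-cluster 2 has Crym in 77.3% and Ecrg4 in 13.6% of cells, while sub-cluster 6 has Ecrg4 in all cells and Cldn11 in none.

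The same spread appeared when all 13739 cells were clustered without the genes of the rule. Members fell in 16 of 29 clusters. Cluster 14, led by Vtn and Zic1, held 138 of them (35.4%), and cluster 9, led by Mia, Mgp and Pdzrn4, held 100 (25.6%). A cluster led by mitotic genes held 48, one led by Pax9 held 27, and the cartilage cluster led by Col2a1 and Matn1 held 12. Members made up 24.7% of cluster 14 and 13.9% of cluster 9, so no cluster consisted mainly of them. By these genes the rule gathered cells of several mesenchymal groups.

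Genes outside the rule were then set beside other mesenchyme as a description, with a log2 ratio of CPM after adding 10 CPM to each side. Of 6815 genes with at least 20 CPM in every library in members, in other mesenchyme or in both, 18.1% were higher in member cells in all 4 libraries and 24.4% were lower in all 4. Fxyd5, a small regulator of the sodium pump that is also a dural marker, stood furthest above. It was detected in 27.95% of members and in 2.53% of other mesenchyme. Within members it was at 381 CPM in sub-cluster 3 and at 43.8 CPM in the rest. It was at 106, 124, 63.2 and 126 CPM in members and at 5.35, 7.52, 3.58 and 8.34 CPM in other mesenchyme, in control 1, control 2, mutant 1 and mutant 2. Thbs2, a matricellular glycoprotein, was at 299, 203, 227 and 285 CPM in members against 51.8, 38.1, 38.2 and 49.6 CPM. Cthrc1, a secreted collagen triple helix protein, was at 761, 552, 528 and 652 CPM against 169, 147, 97.8 and 145 CPM. In each of these genes every member library lay above every library of other mesenchyme.

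Matrix genes were described next. Fmod, a collagen-binding proteoglycan, had log2 ratios of between 1.80 and 2.57 over the libraries, and Col11a1, a minor fibrillar collagen chain, of between 1.42 and 2.15. Epyc, Col8a2, Mgp, Mia, Matn4 and Col2a1 were also among the 30 genes furthest above other mesenchyme. Member cells with 3 or more UMIs of Acan, Matn1, Col11a2 and Hapln1 together held many of the Col2a1 UMIs. They held 443 of 579 in control 1 and 85 of 212 in control 2. In mutant 1 they held 251 of 293, and in mutant 2 607 of 733. The remaining members had Col2a1 at 162.5, 176, 83.4 and 179 CPM, against 171, 78.3, 53.8 and 152 CPM in all other mesenchyme. Counts of list genes stand beside 18.1% of the 6815 genes higher in all libraries and 24.4% lower. Of 15 fibrillar matrix genes, 9 were higher in members in all libraries and 2 lower, and 2 were over 2-fold higher in all. Of 11 basement membrane genes, 10 were higher in all libraries and none lower, with a median log2 ratio of 0.60 against -0.04 over all 6815 genes. The basement membrane genes Nid2, Lama2, Nid1 and Lamb2 had the largest median ratios, from 0.73 to 0.94.

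Transcription factors separated the cells too. Six2 was at 97.6, 124, 102 and 106 CPM in members against 28.4, 35.3, 27.8 and 27.4 CPM in other mesenchyme. Its cofactor Eya2 had log2 ratios of between 1.36 and 1.75, and Tfap2b of between 1.09 and 1.36. Of 4 forkhead genes outside the rule, Foxp1, Foxp2 and Foxc2 were higher in all libraries, beside 18.1% of the 6815 genes. Their medians were 1.51, 1.68 and 1.54 on the log2 scale. Twist2, a bHLH factor of dermal mesenchyme, was at 20.7, 44.4, 17.8 and 36.5 CPM against 201, 268, 281 and 242 CPM. Twist1 was lower in all libraries as well, at ratios of between -1.36 and -0.87.

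Signalling genes differed by pathway. The counts here stand beside 18.1% of the 6815 genes higher in all libraries and 24.4% lower. Retinoic acid genes were split: Rarb (a receptor) and Aldh1a2 (a synthesis enzyme) were higher in all libraries at medians of 1.80 and 1.63, while Crabp1 was lower at -1.26. Of 14 Wnt genes, 8 were lower in all libraries and 2 higher. Wnt5a and Lef1 had median log2 ratios of -1.97 and -1.92, whereas the Wnt antagonist Sfrp1 was at 1.89. Of 8 Hedgehog genes, 5 were lower in all libraries, among them the receptor Ptch1 at -0.70 and the effector Gli3 at -0.54. Imprinted growth genes H19 and Igf2 were higher in all libraries at a median of 1.02 each, and Dlk1 was lower at -1.40. Of 14 YAP and TAZ target genes, 8 were higher in all libraries and none lower, with Ccn1 at a median of 0.73 and Ccn2 at 1.24. Immediate early and heat shock genes, which respond to dissociation, were higher in members in all libraries for 10 of 11 genes, with a median of 0.72, and their part in the other differences was not tested.

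**Figure D2:**
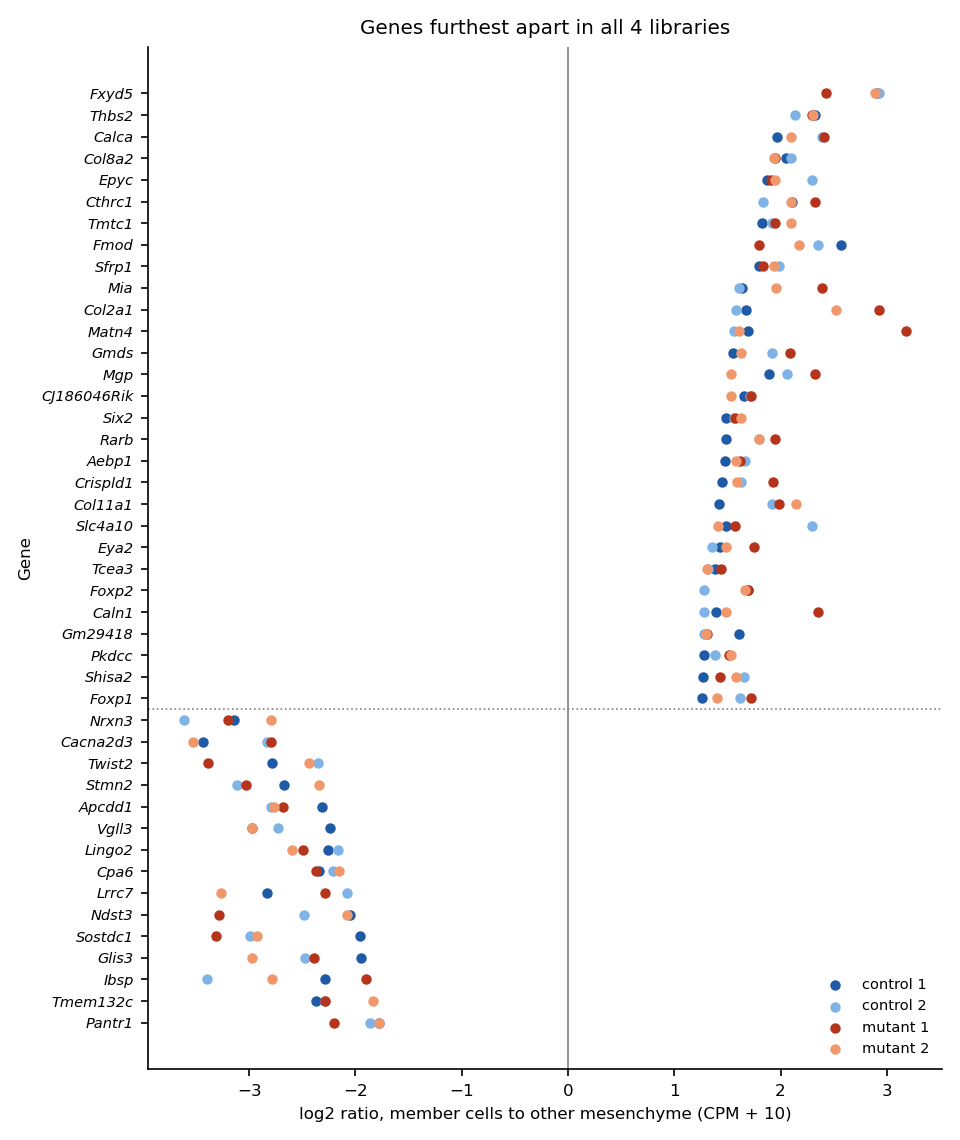
Log2 ratio of CPM plus 10 in member cells to other mesenchyme (horizontal axis) for 29 of the 30 genes furthest above and for the 15 furthest below in all 4 libraries, with 1 point for each library. The libraries lie on the same side of 0 in every row, from Fxyd5 at the top to Pantr1 at the bottom, which follows from how the genes were chosen.

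Lists of markers were used to check which neighbouring tissue the members resembled. Over the 6815 genes described above, 18.1% were higher in members in all libraries and 24.4% lower, to be set beside the counts here. Of 7 dural markers, 5 were higher in members in all libraries (Foxp1, Fxyd5, Dkk2, Nppc and Mgp). The 7 summed to 1809, 1850, 1859 and 1662 CPM in members against 683, 624, 613 and 649 CPM in other mesenchyme. Smoc2, another dural marker, was lower in all libraries, at between 61.6 and 84.2 CPM against between 84.8 and 95.7 CPM. Of 9 arachnoid barrier markers, Cldn11, which the rule uses, was the one higher in all libraries. The barrier markers Cdh1, Dpp4, Slc47a1, Ptgds and Slc22a8 were at 3.60 CPM or below in every library. Aldh1a2, Zic1, Foxc2 and Igf2, 4 of the markers shared by the meninges outside the rule, were also higher in all libraries, while Foxd1, Bmp7 and Slc22a6 were not. Zic1 was at 52.0, 106, 10.6 and 19.2 CPM in collagen-positive cells with Trpm3 or Slc6a13, above members in both controls and below them in both mutants. Of 6 pial markers, 1 was higher and 3 lower in all libraries, and the sum was 1728, 1539, 1733 and 1923 CPM against 2076, 1657, 2029 and 2001 CPM. Of 9 perineurial and endoneurial markers, 1 was higher and 2 lower. Runx2 was detected in 72.0% of sub-cluster 1. In members it was at 250.5, 236, 287 and 205 CPM in control 1, control 2, mutant 1 and mutant 2. Other mesenchyme had 194, 156.5, 169 and 201 CPM in that order. Of 5 osteoblast genes, 1 was higher in all libraries, Runx2, and 3 were lower, among them Ibsp. Sp7 is on the list and absent from both sets of cells by the rule. The list summed to between 255 and 318 CPM in members against between 260 and 390 CPM elsewhere.

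Transcripts of other cell types ranged widely. Macrophage markers summed to at most 7.89 CPM, endothelial markers to at most 6.29 CPM and epithelial markers to at most 12.6 CPM. Epcam and Cdh5 are on these lists and absent from members by the rule, which lowers the epithelial and endothelial sums. Cartilage markers summed to 1076, 480, 1102 and 1718 CPM against 350, 185, 136 and 322 CPM in other mesenchyme. Of the 5, 4 were higher in all libraries, beside 18.1% of the 6815 genes. In total 16, 9, 10 and 10 member cells had 3 or more UMIs of Acan, Matn1, Col11a2 and Hapln1 together. Mural markers, mostly Acta2, summed to 276, 227, 337 and 157 CPM against 178, 223, 144 and 187 CPM, with none higher in all libraries. Glial markers summed to 245 CPM in control 1 and to between 40.8 and 91.8 CPM in the other libraries. Fabp7 made up most of that excess, at 132 CPM in control 1 against 12.0, 4.86 and 5.03 CPM.

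Member cells formed 3.48% (exact 95% interval 2.89% to 4.16%) of collagen-positive cells in control 1 and 4.54% (3.69% to 5.51%) in control 2. In mutant 1 they formed 2.55% (1.96% to 3.25%) and in mutant 2 3.30% (2.73% to 3.96%). Both mutant libraries lay below both controls, by 1.09 percentage points on average with n = 2 against 2, and the intervals, which cover counting error only, overlapped except those of control 2 and mutant 1. The exact two-sided permutation test gave p = 0.333, the smallest that 2 against 2 libraries allow. After thinning to 2000 UMIs the shares were 1.65%, 2.24%, 0.957% and 1.53%, in the same order of groups. With at least 10 collagen UMIs required they were 3.73%, 5.16%, 2.67% and 3.75%, so that mutant 2 lay above control 1 and the exact p was 0.667.

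Cycling was read from UMIs of 20 cell cycle genes in cells thinned to 2000 UMIs. At least 2 such UMIs were found in 44.1% and 43.8% of member cells in the controls and in 32.3% and 37.7% in the mutants. The groups did not overlap, and the exact permutation p was again 0.333. Other mesenchyme gave 44.9%, 47.6%, 42.3% and 43.5%, so there too both mutants lay below both controls (exact permutation p = 0.333). The mean difference was -3.37 points there, against -8.92 points in members. Without thinning the member shares were 88.1%, 81.2%, 90.3% and 79.8%, and the groups overlapped. The cycling sub-cluster 4 held 14.4%, 15.6%, 14.5% and 9.65% of members in control 1, control 2, mutant 1 and mutant 2.

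**Figure D3:**
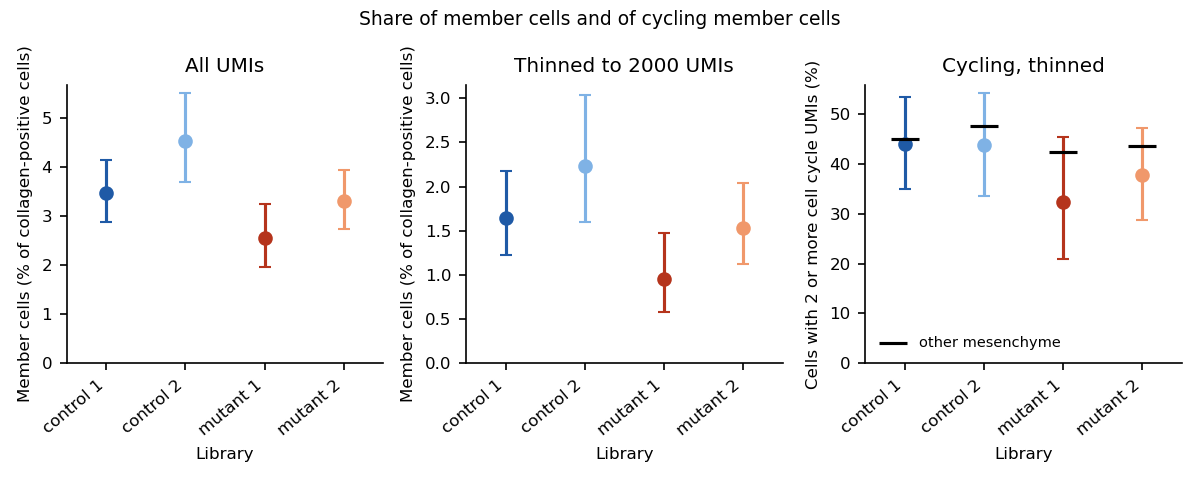
Member cells as a percent of collagen-positive cells with all UMIs (left) and after thinning (middle), and cycling member cells (right), for each library with exact 95% intervals. The mutant libraries lie below the controls in each panel. Black bars show cycling in other mesenchyme, between 42.3% and 47.6%, where the mutants also lie below the controls.

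The targeted genes were compared between genotypes in member cells, with UMIs summed for each library. Yap1 was at 71.0, 52.8, 58.4 and 41.5 CPM in control 1, control 2, mutant 1 and mutant 2, from between 33 and 72 UMIs. Its groups overlapped, and its log2 change from control to mutant was -0.35 ± 0.27 (SE, n = 2 against 2; edgeR adjusted p = 1.00). Wwtr1 was at 128, 164, 109 and 158 CPM, with a change of -0.13 ± 0.23 (adjusted p = 1.00 by edgeR). Of the TEAD partners, Tead1 was at 217, 241, 250 and 218 CPM, Tead2 at 78.9, 62.4, 85.9 and 65.4 CPM, and Tead3 at 19.7, 31.2, 9.73 and 23.9 CPM. Tead4 had at most 5 UMIs in a library. Sox10 had 4, 0, 3 and 0 UMIs.

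Across all genes, 1 of 8952 tested in member cells passed the edgeR quasi-likelihood test after Benjamini-Hochberg adjustment at 0.05, a share of 0.0112%. At an unadjusted p below 0.05, 2.54% of genes were higher and 2.39% lower in the mutants, and in 17.4% and 15.4% of genes the mutant libraries lay wholly above or below the controls. Cytl1 (chromosome 5, 37735519 to 37739820, GRCm38), a secreted cytokine-like protein of cartilage, was the gene that passed. Both mutants, at 69.7 and 51.5 CPM, lay above both controls, at 7.89 and 2.40 CPM, from 43, 41, 8 and 2 UMIs. The log2 change was 3.42 ± 0.43 (SE, n = 2 against 2; edgeR adjusted p = 0.0251). In other mesenchyme the change was -0.35 ± 0.40.

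Few cells carried those molecules. Cytl1 was detected in 6, 2, 9 and 10 member cells of control 1, control 2, mutant 1 and mutant 2, with up to 15 UMIs in 1 cell of mutant 1 and 17 in 1 cell of mutant 2. The cartilage-gene sub-cluster held 3, 0, 8 and 31 of the Cytl1 UMIs. In the remaining cells without 3 UMIs of the 4 cartilage genes, 5, 0, 22 and 10 were left. Without the sub-cluster the change in Cytl1 was 3.11 ± 0.72 and its edgeR adjusted p was 0.751. No gene passed in that fit, in which 396 genes had an unadjusted p below 0.05, nor without the cartilage-gene cells, in which 353 had. The call was also lost without control 2, at an edgeR adjusted p of 0.275.

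By a fixed rule, the next 24 genes were taken in order of unadjusted p among those with non-overlapping groups and a mean of at least 20 CPM. None of them passed the edgeR threshold, so their values are given without a verb of change. Of the 25 genes, 21 had higher values in the mutants and 4 lower. Pcdh15, a protocadherin, was at 31.6, 21.6, 79.4 and 114 CPM in control 1, control 2, mutant 1 and mutant 2, with a log2 difference of 1.84 ± 0.29 (edgeR adjusted p = 0.119). It was detected in 10, 6, 10 and 21 cells. Sorbs2, an adaptor of actin adhesions, was at 92.7, 52.8, 190 and 229 CPM, with 1.49 ± 0.25 (edgeR adjusted p = 0.132). Of its 182 UMIs in mutant 2, 136 lay in the 7 cells of the cartilage-gene sub-cluster.

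Eif3l, a translation initiation factor subunit, was at 74.9, 79.2, 170 and 178 CPM, a log2 difference of 1.16 ± 0.20 with an edgeR adjusted p of 0.132. Polr2f, an RNA polymerase subunit, was at 191, 173, 370 and 360 CPM, a log2 difference of 0.98 ± 0.17 with an edgeR adjusted p of 0.165. Eif3l and Polr2f both neighbour Sox10 on chromosome 15, within the 90.1 kb that end with it, and both differed by similar amounts in other mesenchyme, at 1.04 and 0.83. Of the 4 tested neighbours of Sox10, 3 lay wholly above the controls, beside 17.4% of all genes, the third being Micall1 at 1.71 ± 0.51 (3.94, 9.60, 24.3 and 20.1 CPM). These differences were spread over many cells: Eif3l was detected in 57, 47, 43 and 75 member cells.

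Some of the other genes of the 25 were grouped by what they encode. Left ungrouped were Pde10a (1.66), Fry (1.33), Rabgef1 (1.31), Ift81 (1.29), Itga8 (1.18), Cebpd (1.05) and Ier3 (0.91), given as log2 differences. Csgalnact1, Chst11 and Ugdh, enzymes of chondroitin sulfate synthesis, had log2 differences of 1.56, 1.38 and 0.99, and the cartilage collagens Col11a2 and Col9a2 had 1.94 and 1.04. Without cartilage-gene cells, Ugdh, Csgalnact1, Chst11 and Col9a2 were at 0.68, 0.46, -0.12 and -0.20. Col11a2 was at 4.14 without control 1 and 1.19 without control 2, and Col9a2 at 1.69 and 0.62. Dpp10, Nrxn3, Opcml and Nrg1, which encode membrane or secreted proteins best known from neurons, had 2.03, 1.84, 1.66 and 1.96. Nrg1, a ligand of ErbB receptors, was at 61.1, 8.40, 154 and 134 CPM, and 54 of its 107 UMIs in mutant 2 came from 1 cell. Without control 1 Nrg1 was at 4.06 and Nrxn3 at 2.83, without control 2 Nrg1 was at 1.21, and without mutant 1 Opcml was at 0.84. The lower genes were B930036N10Rik (-2.15), Tmem108 (-1.75), Tenm2 (-1.46) and Col8a1 (-0.87), a short-chain collagen at 192, 269, 126 and 127 CPM. B930036N10Rik was at -1.13 without control 2, and Tenm2 at -0.90 without mutant 2. Of the 25, 18 had a difference of the same sign in other mesenchyme, and the share of such genes over all genes was not counted. In the interaction test described below, 15 of the 25 passed, beside 0.297% of all genes with a more positive change and 0.115% with a more negative one. The 25 were chosen on the same member-cell sums that this test uses. Their share is therefore raised by the choice, and nothing is concluded from it.

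**Figure D4:**
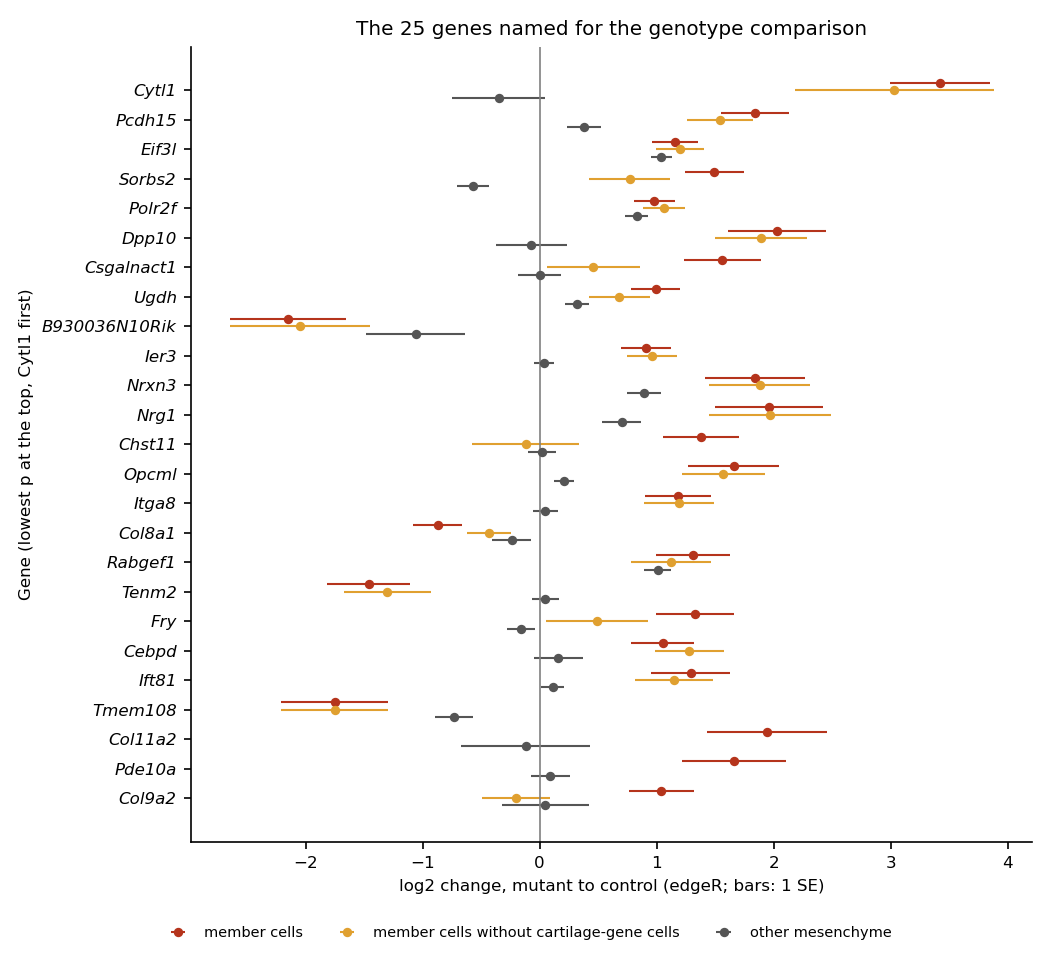
Log2 change from control to mutant with 1 standard error (horizontal axis) for the 25 named genes in member cells, in member cells without cartilage-gene cells and in other mesenchyme. Cytl1 is the gene past the threshold, and Eif3l and Polr2f have similar values in all 3 series. Col11a2 and Pde10a were not tested without cartilage-gene cells.

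Gene lists were described by their counts and medians. The cell cycle list had all 20 genes tested, with a median log2 difference of -0.44 against 0.00 over all genes and -0.03 for the list in other mesenchyme. None passed the adjusted threshold. In 13 of 20 the mutants lay wholly below the controls, beside 15.4% of all genes, and in 6 of 20 the unadjusted edgeR p was below 0.05, beside 2.39%. Cdk1, the mitotic kinase, was at 121, 87.6, 48.6 and 70.4 CPM in control 1, control 2, mutant 1 and mutant 2. Ube2c, a mitotic ubiquitin enzyme, was at 136, 168, 61.6 and 109 CPM, whereas Mki67 was at 64.1, 60.0, 51.9 and 67.9 CPM and overlapped. In these sums, fewer cycling cells and fewer such transcripts in each cell cannot be told apart. Without mutant 2, 1 of the 20 passed the adjusted threshold. The number of 6 became 2 without control 1, between 4 and 7 without any other library, and 1 without cartilage-gene cells, with medians of between -0.53 and -0.37. After thinning 3 of the 20 could be tested, with a median of 0.29.

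Of 22 YAP and TAZ target genes, 17 were tested and none passed the adjusted threshold. Their median log2 difference was -0.28, against -0.09 in other mesenchyme. In 7 of the 17 the mutants lay wholly below the controls, and in 1 above, beside 15.4% and 17.4% of all genes. Ccn1, a matricellular protein, was at 324, 522, 251 and 293 CPM and Ccn2, its relative, at 85.8, 126, 74.6 and 55.3 CPM in control 1, control 2, mutant 1 and mutant 2. Their log2 differences were -0.64 ± 0.22 and -0.72 ± 0.25, with unadjusted edgeR p-values of 0.0123 and 0.0138. Amotl2, Lats2 and Ptpn14, feedback regulators of the pathway, lay lower without overlap but by less than 2 standard errors each, and Gadd45b lay higher (152, 122, 191 and 191 CPM). Without control 2 the median was -0.09, and none of the 17 had an unadjusted p below 0.05.

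**Figure D5:**
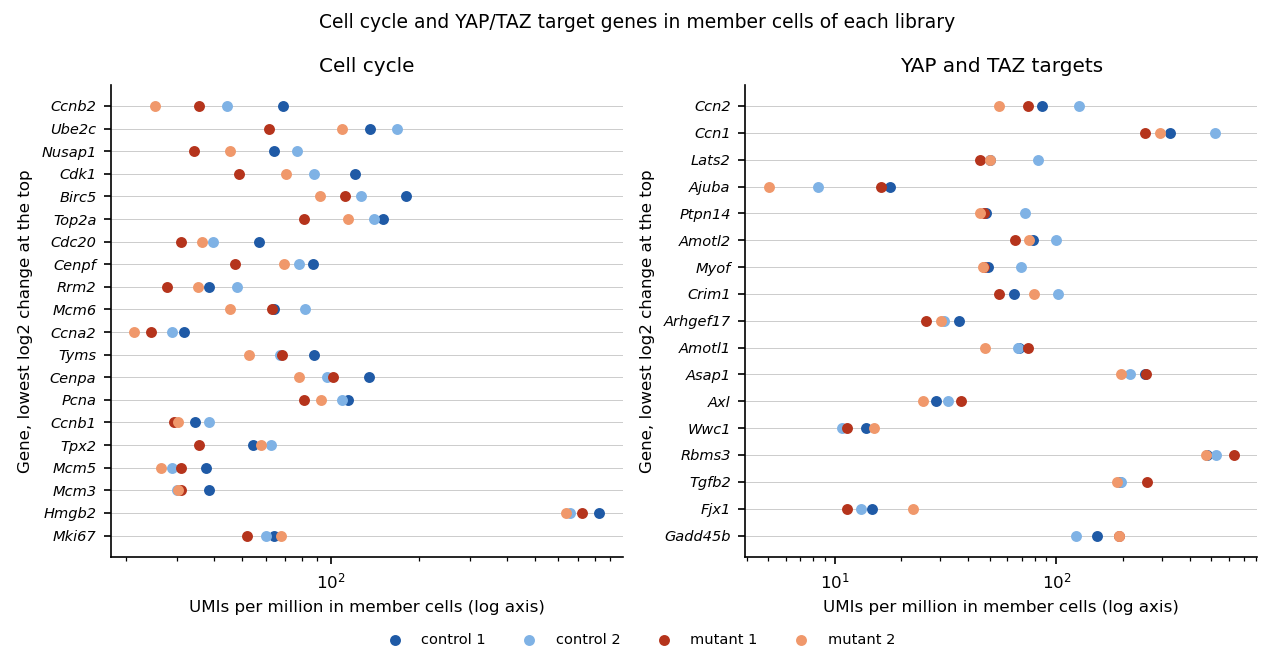
Levels in CPM in member cells, on a log axis, for the cell cycle genes (left) and the YAP and TAZ targets that were tested (right), ordered by log2 change, with 1 point for each library. In 13 of 20 cell cycle genes and 7 of 17 targets both mutant points lie left of both control points.

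Cartilage markers and stress genes were set beside the groups as well. Of 5 cartilage markers, 4 had an unadjusted edgeR p below 0.05 and a positive log2 difference, beside 2.54% of all genes. In 3 of the 5 the mutants lay wholly above the controls, beside 17.4% of all genes. The median log2 difference of the 5 was 0.74, against -0.31 in other mesenchyme. Without cartilage-gene cells, a filter that itself lowers Acan and Matn1, it was -0.24. Of 13 stress genes, 2 had an unadjusted edgeR p below 0.05 and a positive difference, again beside 2.54%, and the median was 0.27. Atf3, an immediate early transcription factor, was at 52.3, 75.6, 81.0 and 174 CPM (1.02 ± 0.32). The part of the stress genes in the other differences was not tested.

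The remaining lists had no gene past the adjusted threshold. The 11 tested FGF genes had a median log2 difference of 0.37, against -0.11 in other mesenchyme, with the ligand Fgf10 at 13.8, 9.60, 29.2 and 16.3 CPM and none at an unadjusted p below 0.05. The 14 tested basement membrane genes had a median log2 difference of 0.01, the 18 fibrillar matrix genes -0.03, the 12 BMP genes 0.02 and the 14 Wnt genes 0.06. In the BMP list Id1, a transcriptional target of the pathway, was at 246, 305, 206 and 118 CPM (-0.79 ± 0.24), while the other 11 included Id3 at 856, 829, 772 and 909 CPM. In the retinoic acid list Aldh1a3 was at 5.92, 8.40, 16.2 and 33.9 CPM (1.84 ± 0.50) and Aldh1a2 at 88.7, 56.4, 110 and 111 CPM (0.57 ± 0.24). The 5 tested thyroid hormone genes had a median of 0.30. Among the 7 panel genes, described only because the rule uses them, log2 differences ran from -0.51 (Akap12) to 0.13 (Crym).

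Whether the genotype difference in member cells was unlike that in other mesenchyme was tested with an interaction term over 8 sums, 2 from each library, with library as a term. Of 14833 genes, 61 passed the edgeR threshold after Benjamini-Hochberg adjustment: 0.297% of genes with a more positive change in member cells and 0.115% with a more negative one. Of the 5 cartilage markers, 4 were among them (Col2a1, Acan, Matn1 and Col9a1). Col2a1, the main cartilage collagen, was at 571, 254, 475 and 921 CPM in members, with an interaction of 1.14 on the log2 scale (edgeR adjusted p = 1.72e-09). Matn1 had an interaction of 2.17, Cytl1 of 3.88 and Sorbs2 of 2.07. Without cells that had 3 UMIs of Acan, Matn1, Col11a2 and Hapln1 in either class, a filter that itself lowers those 4 genes, 7 genes passed, all among the 61 and including Ccl7, Cntnap2, Epha3, Jund, Lrp1b and Mfap5. With members defined by 2 panel genes, none passed, and 790 genes had an unadjusted p below 0.05.

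Epha3, an ephrin receptor, was at 151, 115, 95.6 and 54.0 CPM in members of control 1, control 2, mutant 1 and mutant 2, with a log2 difference of -0.88 ± 0.27, while the difference in other mesenchyme was 0.46. The interaction was -1.36 (edgeR adjusted p = 1.59e-07), with an adjusted p of 0.0204 by limma on the within-library log2 ratios of members to other mesenchyme, an alternative added after seeing the data. Jund, an AP-1 subunit, was at 626, 798, 887 and 1013 CPM with an interaction of 0.54. Cntnap2 rested on 1 library, at 83.0 CPM in mutant 2 against 7.89, 2.40 and 6.48 CPM. Epha3 and Ccl7 were the genes of the 7 that also passed by limma.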

How the data were processed

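UMI counts of each gene and cell barcode, not normalized, were deposited by the authors as sparse matrices. The file headers name Cell Ranger 8.0.1, whereas the submitters' processing notes list Cell Ranger 4, Seurat 4.3.0 and build mm10. The disagreement is unresolved. The protocol names 5 samples, of which 4 were used here. Cells were kept at 500 or more genes and at most 10% mitochondrial UMIs, which left 13739 cells. Scrublet through scanpy 1.11.5 marked 0 to 3 doublets per library and was judged not to have worked. Cells with the highest scores, at 0.8% per 1000 barcodes, were instead marked and kept, and their removal was an alternative. Marked cells made up 6, 2, 0 and 5 of the members.

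Counts of member cells were summed per library. Genotypes were compared with the quasi-likelihood test of edgeR 4.0.16 in R 4.3.3, with filterByExpr, TMM scaling and Benjamini-Hochberg adjustment over all tested genes, and the code was tested on simulated data. Member cells gave between 616927 and 1014146 UMIs a library, so low genes rest on few molecules. CPM divides by all UMIs of the summed cells, and 3′ levels are not compared between genes. The interaction model held library, cell class and class by genotype. DESeq2 1.42.0 and limma 3.58.1 were alternatives, as were other membership rules, filters, thinning to 2000 UMIs and leaving out each library. Shares were compared by exact permutation. Sub-clusters came from Leiden clustering (leidenalg 0.10.2) at a resolution of 0.5 on 1000 variable genes, and all-cell clusters at a resolution of 1 on 2000. Leading genes were ranked by log2 ratio after adding 20 CPM, among genes in at least 20% of the cells. Coordinates come from GENCODE on GRCm38, matched by identifier for 32158 of 32285 features.

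Genes named were the targets, TEAD factors, Sox10 and the genes of the rule, the 25 of the genotype rule, the 30 highest and 15 lowest in the description, and members of the gene lists. The leading genes of clusters and the 7 genes of the interaction were chosen after their values were seen. Some genes met these rules but are not reported here. The members and lists were chosen with earlier results of these data known. Alternatives without cartilage-gene cells, and limma on within-library ratios, were added after seeing the data.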

Additional observations from a re-analysis of the deposited data

Results flagged for a closer look

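For 31 of the genes described, the change from control to mutant in member cells differed from that in other mesenchyme by the interaction test (edgeR adjusted p below 0.05 over 14833 genes). Values are log2 change in member cells minus that in other mesenchyme. Among cartilage genes these were 3.88 for Cytl1, 2.17 for Matn1, 2.13 for Col11a2, 1.14 for Col2a1, 1.36 for Acan, 1.06 for Col9a1 and 1.02 for Col9a2. The chondroitin sulfate enzymes Csgalnact1 and Chst11 stood at 1.58 and 1.36. In 16, 9, 10 and 10 member cells of control 1, control 2, mutant 1 and mutant 2 there were 3 or more UMIs of Acan, Matn1, Col11a2 and Hapln1. The interaction fit was repeated without such cells in either class, a filter that itself lowers those 4 genes. None of the genes in this paragraph was among the 7 that then passed.

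The other genes named for the genotype comparison or as guidance genes follow. Sorbs2 stood at 2.07, Pcdh15 at 1.50, Dpp10 at 2.09, Opcml at 1.41, Nrg1 at 1.31, Itga8 at 1.14, Pde10a at 1.57 and Fry at 1.48. Tenm2 stood at -1.51, Epha3 at -1.36 and Slit3 at -0.53. Of the immediate early and heat shock genes, Fos stood at 0.43, Egr1 at 0.60, Ier2 at 0.58, Atf3 at 1.24, Ier3 at 0.87 and Hspa1a at -1.57. In member cells alone, the log2 difference without cartilage-gene cells was 0.77 for Sorbs2 and 0.49 for Fry, against 1.49 and 1.33 with them. For Pcdh15, Dpp10, Opcml, Nrg1 and Itga8 it was 1.54, 1.89, 1.57, 1.97 and 1.19, against 1.84, 2.03, 1.66, 1.96 and 1.18.

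Among matrix and metabolic genes, Dcn and Fn1 each stood at 0.50 and Col18a1 at 1.67. Dio3, an enzyme that inactivates thyroid hormone, stood at 4.49, from 0, 1.20, 6.48 and 18.9 CPM in member cells. These Dio3 levels rest on few UMIs, and the highest was that of mutant 2. Fabp7, a glial lipid carrier, stood at -3.24 and rested on control 1, with 132 CPM there against at most 12.0 CPM in the other libraries. Of the 31 genes, Epha3 was among the 7 that passed without cartilage-gene cells.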

How the results depend on the processing

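The count of 1 gene between genotypes became 52 with no filter on low counts, 19 with a replicate block, and 0 without cartilage-gene cells and without their sub-cluster. It ran from 1 to 52 with 1 library left out: 12 without control 1, 1 without control 2, 42 without mutant 1 and 52 without mutant 2. Cytl1 was not the gene called without control 2, with at least 2 or 4 panel genes, or after thinning, where 1 gene passed each time. The numbers of libraries do not pair them by the labels, and deviations of control 1 and mutant 1 had a correlation of 0.03, so the replicate block rests on a shared number alone.

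The interaction count of 61 became 0 with at least 2 panel genes, 16 by limma on within-library ratios, 7 without cartilage-gene cells and 40 without their sub-cluster. It ran from 40 (without mutant 1) to 85 (without mutant 2). The cause was not tested. The difference in cycling share of -8.92 points was 0.381 at full depth, and between -11.6 and -6.19 with 1 library left out. The share of member cells kept its direction under all alternatives, at between -1.61 and -0.559 points with 1 library left out.

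Of 372 values for 27 single genes, 7 reversed. Of the 27, 25 were chosen for groups that did not overlap, so few reversals with 1 library left out follow from that choice. Without cartilage-gene cells Chst11 was at -0.12 and Col9a2 at -0.20, and without their sub-cluster Col9a2 was at -0.13. After thinning Col8a1 and Wwtr1 were each at 0.19. Wwtr1 ran from -0.45 to 0.11 with 1 library left out, and was 0.05 without control 2. With 1 library in an arm, that library is assumed to vary like the others. Member cells of mutant 1 were fewest, at 62, which limits every comparison here.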

Other observations

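Guidance genes were mixed in member cells. Against other mesenchyme, Sema3c, a secreted semaphorin, was at 121, 190, 107 and 138 CPM in members of control 1, control 2, mutant 1 and mutant 2 and at 64.8, 91.1, 62.6 and 60.0 CPM elsewhere. Robo2, a receptor for Slit ligands, was at 477, 378, 524 and 439 CPM in members and at 784, 965, 1183 and 1014 CPM elsewhere. Between genotypes Slit3 was at 462, 449, 308 and 366 CPM in members, a log2 difference of -0.45 ± 0.17, and the receptor Unc5c at 236, 253, 331 and 358 CPM, with 0.48 ± 0.17. Neither passed the edgeR threshold after adjustment.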
